A study of Mus musculus with 6 samples.

Results

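Axon guidance ligands and receptors were followed in the ventral dentate gyrus of male C57black 6 mice. The 69 genes were picked by a rule on symbols, which uses no measured value, from the 24062 gene symbols of the count files. They are the semaphorins of classes 3 to 7, plexins, neuropilins, Eph receptors, ephrins, Slits, Robos, netrins, and the netrin receptors Dcc and Unc5a to Unc5d. RNA came from 3 biological replicates given Chronic Restrained Stress, a repeated confinement, and from 3 Not-stressed Controls. The labels name no allele or drug in either group. They do not say how old the mice were or whether a replicate is 1 animal or a pool, so p-values measure the spread between these libraries. The comparison asks how each guidance gene differed between stressed and unstressed mice, beside the level at which it was present.

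These proteins were named for steering growing axons. Semaphorins signal through plexins, and most secreted class 3 semaphorins need a neuropilin as co-receptor, while Sema3E can bind Plexin-D1 directly. Ephrins are tethered to the membrane and activate Eph receptor tyrosine kinases on the neighbouring cell. Slits repel axons through Robo receptors, and netrins attract through DCC or repel through UNC5 proteins. In the hippocampus several of these systems also act at synapses and dendritic spines, among them EphA4 with ephrin-A3, Sema3F with neuropilin-2, and Sema5A with Plexin-A2.

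Libraries held 8575540 to 9626686 gene counts in stress and 8305753 to 10107953 in controls. The 69 genes took 0.510% to 0.533% of the gene counts in stress and 0.478% to 0.520% in controls. Stress replicate 1 stood apart from the other 5 libraries in its markers of other cell types. The 6 granule neuron markers, among them Prox1, summed to 319, 662 and 781 CPM (counts per 1000000 gene counts, on scaled library totals) in stress replicates 1, 2 and 3, and to 684, 674 and 556 CPM in the controls, and all 6 were detected in every library. The 8 choroid plexus markers were all highest in stress replicate 1, with sums of 4762, 31.2 and 28.0 CPM in stress against 23.0 to 25.8 CPM in controls. Otx2, a defining marker of that tissue, was at 0 in stress replicates 2 and 3 and in control replicate 3. All 6 ependymal, 8 striatal, 5 CA3 and 6 oligodendrocyte markers were also highest in stress replicate 1. The ependymal sums were 87.9, 10.7 and 8.21 CPM in stress against 6.96 to 8.35 CPM in controls, and the striatal sums were 536.5, 73.8 and 75.2 CPM against 74.1 to 81.5 CPM, with 8 of 9 listed striatal symbols in the files. CA3 markers summed to 597, 449 and 478 CPM in stress against 359 to 466 CPM in controls, and oligodendrocyte markers to 4350, 2855 and 1817 CPM against 2278 to 2831 CPM. Choroid plexus sums thus lay higher in each stress library than in each control, by little outside stress replicate 1. Of these markers only Kl separated the groups, at 22.9 and 23.6 CPM in stress replicates 2 and 3 against 17.6 to 19.9 CPM in controls. Ttr was at 6.52 and 2.08 CPM in those stress libraries against 2.94 to 4.48 CPM in controls. Marker sums of 2 other lists also separated the groups. Thalamus and habenula markers summed to 104, 135 and 116 CPM in stress against 193 to 203 CPM in controls, and astrocyte markers to 1182, 1319 and 1344 CPM in stress against 1357 to 1516 CPM. In whole tissue, fewer cells of a type and less RNA per cell cannot be told apart. The genes described below whose values moved most without stress replicate 1 are given with and without it.

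**Figure D1:**
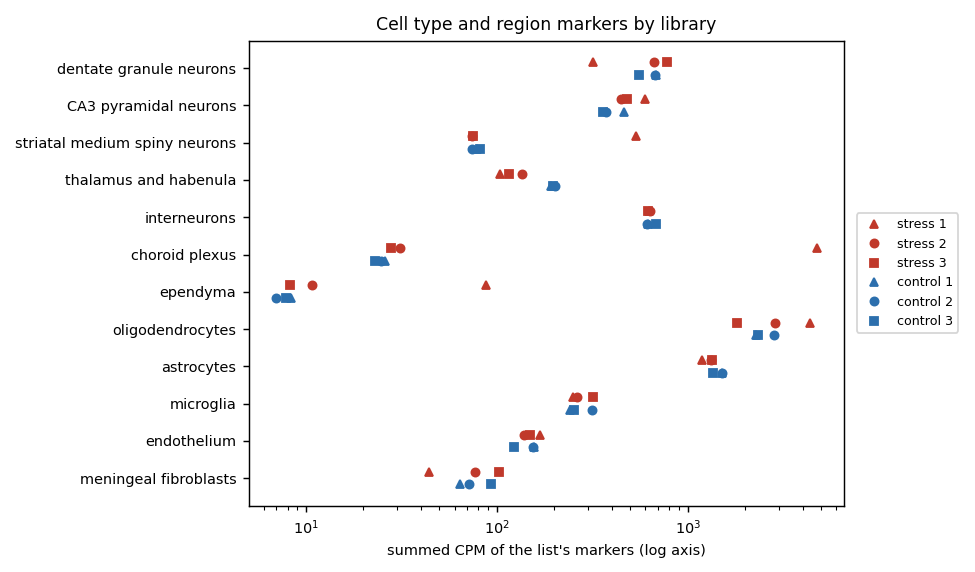
Summed CPM of the marker lists of 12 cell types and regions (log axis), with 1 symbol per library, stress in red and control in blue. Stress replicate 1, the red triangle, lies far to the right for choroid plexus (4762 CPM), ependyma (87.9 CPM) and striatal neurons (536.5 CPM) and to the left for granule neurons (319 CPM).

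Levels between genes were compared per length, as CPM per kilobase of summed exons. Epha4, a receptor found on granule cell and pyramidal neuron spines, was the most abundant of the 69 at 79.4 ± 19.5 CPM per kilobase in stress and 70.3 ± 8.14 in controls (SD, n = 3 each). Slit1 followed at 45.3 ± 10.7 in stress and 40.5 ± 1.86 in controls, then Epha6 at 43.6 ± 5.89 and 33.4 ± 1.23, and the transmembrane ephrin gene Efnb3 at 32.5 ± 5.27 and 30.7 ± 3.96. The ranges of Slit1 and Epha6 overlapped in stress, as did those of Epha6 and Efnb3 in controls. Among semaphorins the highest levels were those of the transmembrane gene Sema6b, at 26.8 ± 0.338 CPM per kilobase in stress and 24.1 ± 0.494 in controls, and of the membrane-anchored Sema7a, at 21.5 ± 2.03 and 23.3 ± 1.74. Plxna4 led the plexins with 27.3 ± 2.89 in stress and 27.7 ± 4.09 in controls, and Nrp1 at 24.1 ± 1.67 and 21.4 ± 1.72 lay above Nrp2 at 7.95 ± 0.207 and 7.42 ± 1.31. Robo2 was the highest Robo, at 10.5 ± 0.675 and 9.20 ± 1.04. In the netrin system the receptor gene Unc5a stood at 20.2 ± 3.05 CPM per kilobase in stress and 18.3 ± 1.78 in controls, well above the highest netrin, Ntn5, at 2.96 ± 2.02 and 5.05 ± 1.18.

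Summed per length, the 14 Eph receptors gave 200 ± 24.2 CPM per kilobase in stress and 181 ± 13.8 in controls, and the 20 semaphorins 124 ± 3.98 and 121 ± 5.16. The 9 plexins summed to 110, 108 and 113 CPM per kilobase in stress against 104, 105 and 99.0 in controls, so the groups did not overlap. Without Plxna1 the plexin sums were 84.3, 90.9 and 91.5 in stress against 91.9, 91.0 and 84.9 in controls, and the groups overlapped. The 2 neuropilins gave 34.2, 31.0 and 30.9 in stress against 29.3, 29.8 and 27.3 in controls. The netrins had the lowest sum, at 7.55 ± 2.02 in stress and 9.74 ± 1.21 in controls.

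**Figure D2:**
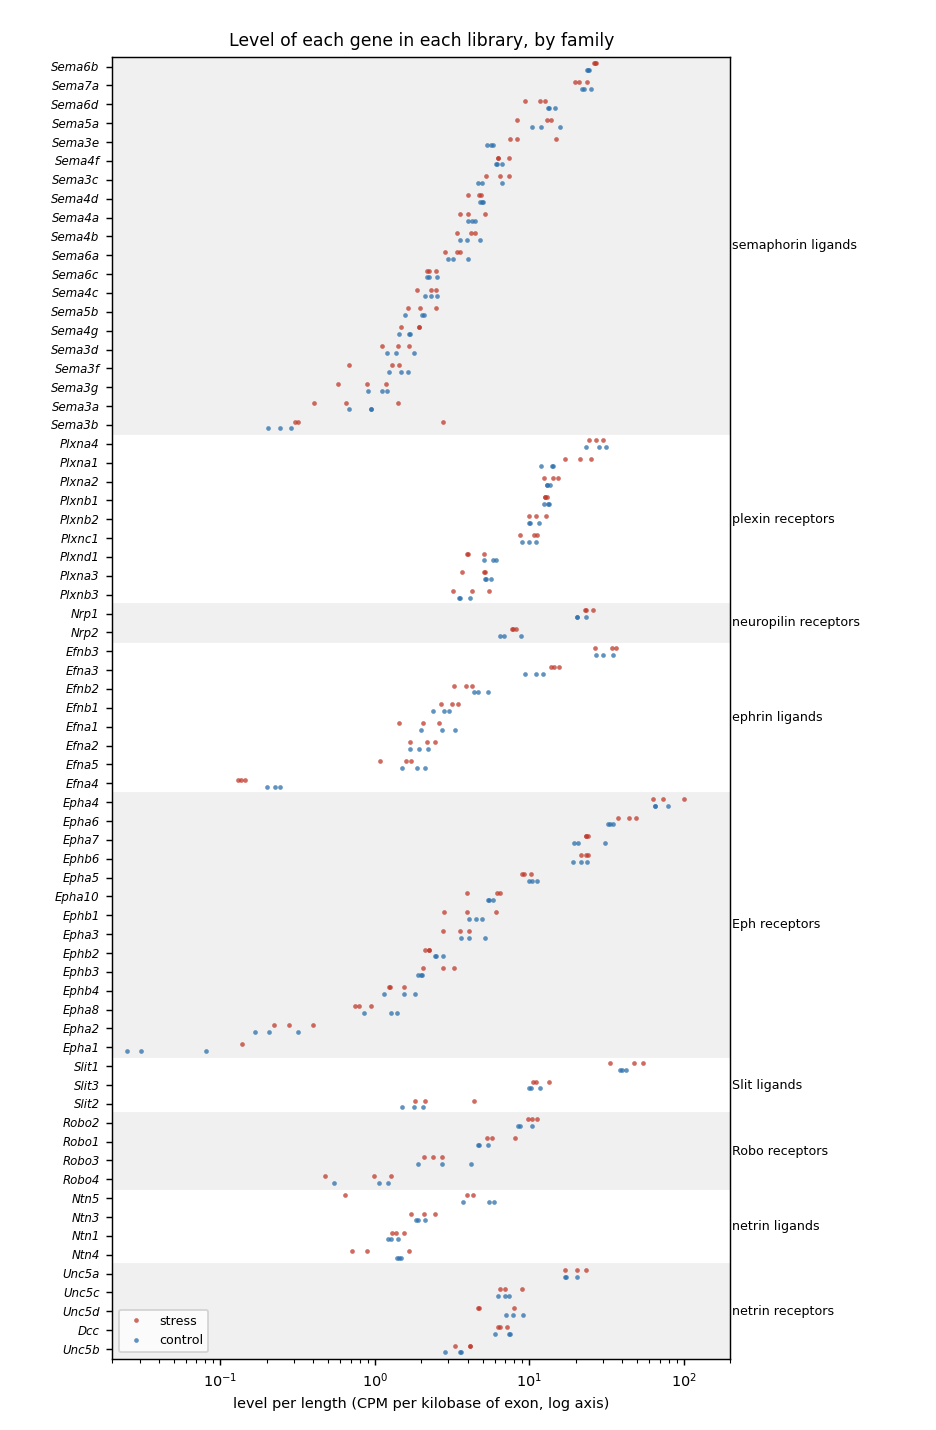
Level of each of the 69 genes in CPM per kilobase of exon (log axis), 1 point per library, stress in red above control in blue, grouped by family and ordered by mean level. Epha4 is the highest at 79.4 in stress and 70.3 in controls, the libraries of most genes overlap between the groups, and the 2 stress libraries in which Epha1 had 0 counts are not drawn.

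The groups were tested with the quasi-likelihood method of edgeR on all 14058 genes that passed the filter on low counts, with Benjamini-Hochberg adjustment over all of them. 67 of the 69 genes were tested, and none passed an adjusted p of 0.05, with 0 called higher and 0 lower. Over all tested genes the same rule called 0% higher and 0.0285% lower. The lowest adjusted p among the 67 was 0.232, that of Plxna1. DESeq2 called 2 of them higher, Plxna1 and Sema3e, and 0 lower, beside 39 higher and 68 lower of all 14058 genes. With limma-voom 0 of them were called, beside 0 higher and 1 lower of all genes. At an unadjusted p under 0.05, 8 of the 67 were higher and 5 lower in stress, which is 11.9% and 7.46% of them, beside 3.86% and 4.85% of all tested genes. The stress libraries all lay above the controls for 7 genes and all below for 4, or 10.4% and 5.97%, beside 6.76% and 7.84% of all tested genes. Leaving out each library in turn gave 4 to 10 members higher and 1 to 10 lower at an unadjusted p under 0.05, or 5.97% to 14.9% and 1.49% to 14.9% of them, beside 2.63% to 5.40% and 3.2% to 6.13% of all genes. The median log2 fold change of stress over control was -0.0021 over the 67 genes and 0.0038 over all genes tested, with 33 positive and 34 negative. Ligands and receptors gave like counts, with 4 of 34 ligands higher and 2 lower at that unadjusted p, and 4 of 33 receptors higher and 3 lower.

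**Figure D3:**
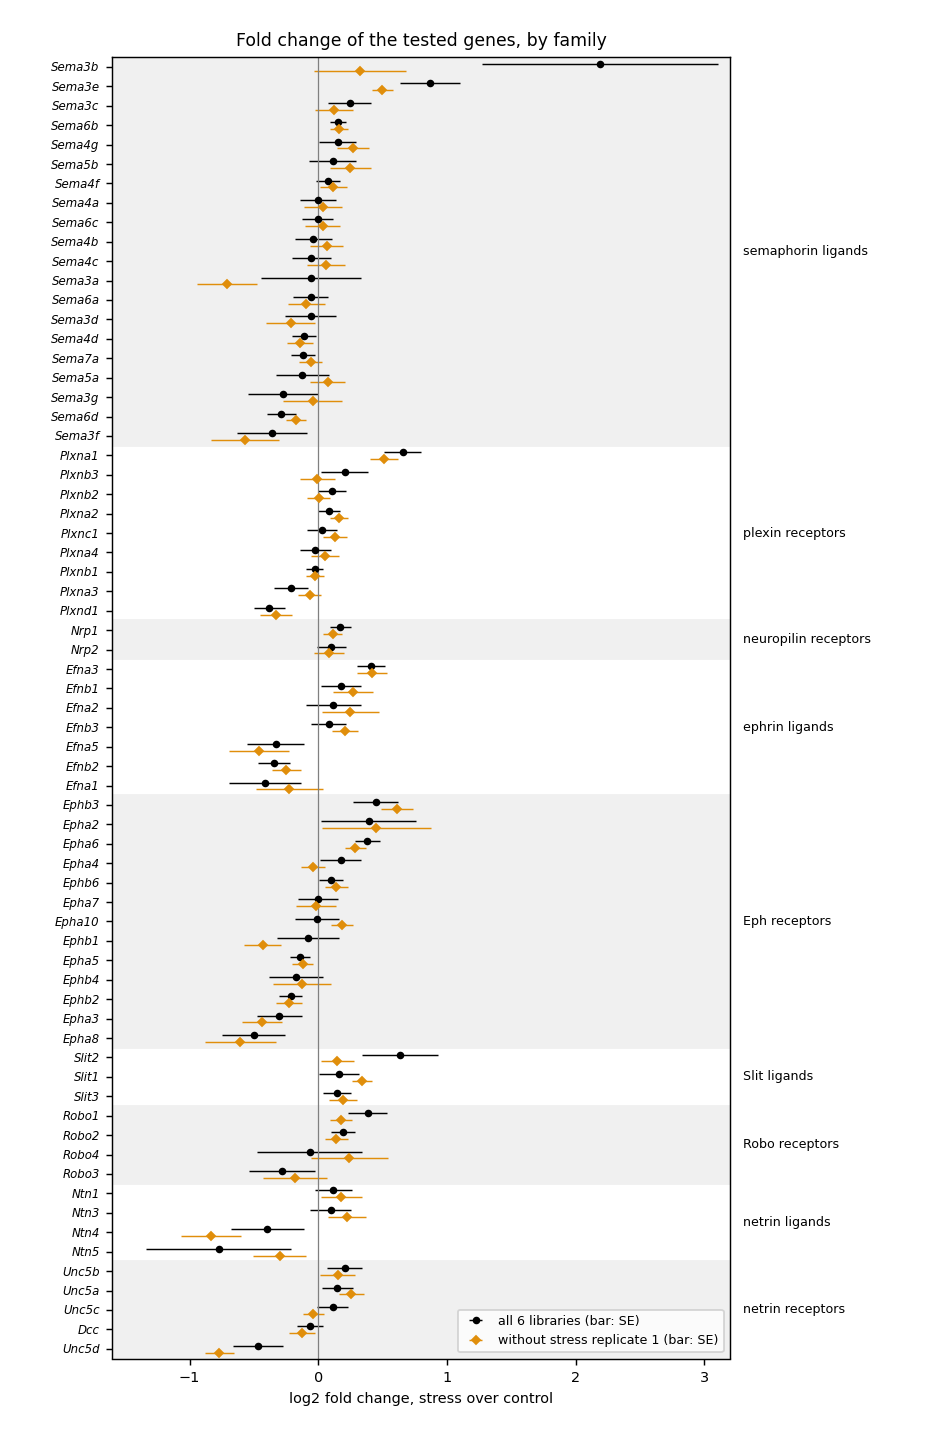
Log2 fold change of stress over control for the 67 tested genes by family, from all 6 libraries (black circles) and without stress replicate 1 (orange diamonds). Bars are 1 standard error of limma-voom, drawn around the edgeR estimate. Sema3b moves from 2.19 to 0.32 and Unc5d from -0.47 to -0.77 when that library is left out, while Plxna1 stays to the right at 0.66 and 0.51.

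The promoter windows of 3 genes are shown because these genes had the smallest p among guidance genes with a window in the RefSeq table. Each runs from 250 bases before to 50 after the annotated start on GRCm38.p6, 5′ to 3′ on the gene's strand. Capitals mark the GC box GGGCGG or its reverse complement CCGCCC, a motif of many promoters without a TATA box. Sema3e is at chr5:14025026-14025325 on the plus strand, Epha6 at chr16:60605482-60605781 and Efna3 at chr3:89322890-89323189, both on the minus strand.
Sema3e: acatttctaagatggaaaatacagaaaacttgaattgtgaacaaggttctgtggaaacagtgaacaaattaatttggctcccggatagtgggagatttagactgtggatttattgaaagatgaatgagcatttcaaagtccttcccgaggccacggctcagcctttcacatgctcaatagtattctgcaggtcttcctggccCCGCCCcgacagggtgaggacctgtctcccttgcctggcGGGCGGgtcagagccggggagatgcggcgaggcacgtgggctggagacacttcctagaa
Epha6: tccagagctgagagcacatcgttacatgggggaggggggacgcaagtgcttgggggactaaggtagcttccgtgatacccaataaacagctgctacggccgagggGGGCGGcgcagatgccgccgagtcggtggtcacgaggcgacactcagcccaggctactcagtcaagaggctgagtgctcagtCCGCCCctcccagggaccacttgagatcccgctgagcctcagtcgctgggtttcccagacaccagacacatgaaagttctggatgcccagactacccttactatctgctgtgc
Efna3: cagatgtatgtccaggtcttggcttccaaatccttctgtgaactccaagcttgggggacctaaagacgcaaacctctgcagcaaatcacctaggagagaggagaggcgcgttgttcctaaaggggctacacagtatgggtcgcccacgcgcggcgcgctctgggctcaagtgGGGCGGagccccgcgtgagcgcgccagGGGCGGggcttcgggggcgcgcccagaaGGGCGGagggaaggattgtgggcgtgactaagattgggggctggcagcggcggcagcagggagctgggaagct
Sema3e and Epha6 hold 2 such boxes and Efna3 holds 3. On either strand the box was in 70.7% of the 75 windows of guidance genes and in 35.7% of all 32851 windows in the table. The hexamer AGAACA, an arm of the glucocorticoid receptor element, was in 10.7% of the guidance windows and 19.0% of all windows, and in none of the 3 shown. The E-box CACGTG was in 6.67% and 7.15%, with 1 in the Sema3e window. The windows of the whole table were not matched to the guidance genes on gene type, base content or expression. These shares therefore do not set the guidance genes apart. 59 of the 69 genes have a window, and those without are Dcc, Efnb3, Ntn1, Plxna1, Plxna4, Sema3b, Sema3f, Sema6a, Slit1 and Unc5d.

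Among the secreted semaphorins, Sema3e was the one with the smallest p. Its transcript was at 138, 77.1 and 69.8 CPM in stress replicates 1, 2 and 3, against 54.2, 49.3 and 52.5 CPM in the controls. Every stress library lay above every control, with stress replicate 1 far above the other 2. This gave a log2 fold change of 0.87 (SE 0.23), adjusted p 0.342 by edgeR. Leaving out stress replicate 1 gave 0.50 (SE 0.08), adjusted p 0.0415, so Sema3e rose in that fit. Markers of other cell types were also highest in that library, and their part in the Sema3e level was not tested. Sema3b, a tumour suppressor candidate in human cells, was at 13.3 CPM in stress replicate 1 and at 1.51 and 1.45 CPM in the other stress libraries, against 0.968, 1.37 and 1.17 CPM in controls. By edgeR a log2 fold change of 2.19 (SE 0.92) became 0.32 (SE 0.35) without stress replicate 1, at adjusted p 0.540 and 0.797. The SE is from limma-voom, whose own estimate with all 6 libraries was 1.37. The choroid plexus, ependymal, striatal, CA3 and oligodendrocyte markers were also highest in stress replicate 1, and their part in the Sema3b level was not tested. The 5 other class 3 genes ran from -0.36 for Sema3f to 0.24 for Sema3c on the log2 scale, and from -0.71 for Sema3a to 0.12 for Sema3c without stress replicate 1. Sema3a was at 19.8, 9.08 and 5.61 CPM in stress against 13.2, 9.51 and 13.2 CPM in controls. A log2 fold change of -0.06 (SE 0.39) contrasted with -0.71 (SE 0.23), adjusted p 0.233, once stress replicate 1 was left out.

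Among the membrane-bound semaphorins, Sema6b and Sema6d separated the groups in opposite directions. Sema6b was at 105, 108 and 106 CPM in stress against 97.5, 93.5 and 95.7 CPM in controls. The groups did not overlap and each spanned a narrow range, with a log2 fold change of 0.15 (SE 0.06), adjusted p 0.534. Sema6d, whose protein can bind Plexin-A1, was at 99.8, 134 and 124 CPM in stress against 140, 156 and 141 CPM in controls. All stress libraries lay below all controls, at a log2 fold change of -0.29 (SE 0.11), adjusted p 0.532, which became -0.17 (SE 0.08), adjusted p 0.426, without stress replicate 1. For the 6 class 4 genes log2 fold changes ran from -0.11 to 0.15, and from -0.14 to 0.27 without stress replicate 1. Sema5a, a class 5 gene active at granule cell synapses, was at 156, 244 and 258 CPM in stress against 297, 225 and 195 CPM in controls, so the groups overlapped. Its log2 fold change of -0.12 (SE 0.21) turned to 0.07 (SE 0.13) without stress replicate 1. For Sema7a the log2 fold change came to -0.12 (SE 0.09), and to -0.06 (SE 0.09) without that library.

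Plxna1 encodes a plexin that serves class 3 semaphorins together with neuropilins, and had the smallest p of the 67 genes. It was at 228, 153 and 193 CPM in stress against 107, 129 and 128 CPM in controls. Each stress library lay above each control, with the highest value in stress replicate 1, and the means were 191 ± 37.4 and 121 ± 12.2 CPM (SD, n = 3 each). That is a log2 fold change of 0.66 (SE 0.14), adjusted p 0.232 by edgeR and 0.00219 by DESeq2. Leaving out stress replicate 1 gave 0.51 (SE 0.11), adjusted p 0.0729. An exon of Plxna1 overlaps the antisense gene Gm26811, and since no source used here gives the strand setting of the counting, reads of the pair cannot be told apart there. Plxnd1, the receptor of Sema3E, was at 29.4, 37.3 and 28.8 CPM in stress against 42.5, 37.1 and 44.5 CPM in controls. Stress replicate 2 lay just above control replicate 2, and the others separated, with a log2 fold change of -0.38 (SE 0.12), adjusted p 0.466. Thus the ligand gene Sema3e and its receptor gene Plxnd1 had fold changes of opposite sign, and neither passed with all 6 libraries. The 7 other plexins ran from -0.21 for Plxna3 to 0.21 for Plxnb3 on the log2 scale. Without stress replicate 1 these values were -0.07 and -0.01, and the same genes ran from -0.07 for Plxna3 to 0.16 for Plxna2. For Nrp1 the log2 fold change was 0.17 (SE 0.08), or 0.11 (SE 0.08) without stress replicate 1, and for Nrp2 0.10 (SE 0.12).

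Of the ephrins, Efna3 was the one with the smallest p. Ephrin-A3 is known from astrocytes, where it faces EphA4 on spines. Efna3 was at 35.0, 33.8 and 37.7 CPM in stress against 23.0, 30.0 and 27.0 CPM in controls. The groups did not overlap, and stress replicate 1 lay between the other stress libraries. The log2 fold change came to 0.41 (SE 0.11), adjusted p 0.355, and to 0.42 (SE 0.12), adjusted p 0.176, without stress replicate 1. The astrocyte marker sum was lower in each stress library than in each control, and its part here was not tested. An exon of Efna3 overlaps the antisense gene Gm15998, with the same limit on strand. Efnb2, a transmembrane ephrin also known from blood vessels, was at 22.3, 29.2 and 26.6 CPM in stress against 30.1, 32.2 and 36.9 CPM in controls. It lay lower in all stress libraries, with a log2 fold change of -0.35 (SE 0.12), adjusted p 0.521. The 5 other tested ephrins ran from -0.41 for Efna1 to 0.18 for Efnb1, and from -0.46 for Efna5 to 0.27 for Efnb1 without stress replicate 1. Efna4 had 2 counts in each stress library and 3, 4 and 3 in the controls, and did not pass the filter.

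Among Eph receptors, Epha6 and Ephb3 were higher in stress without overlap, and Ephb2 was lower. Epha6 was at 259, 197 and 234 CPM in stress against 176, 184 and 171 CPM in controls. Stress replicate 1 was again the highest, and the part of the cell type markers of that library was not tested. Epha6 had a log2 fold change of 0.38 (SE 0.10), adjusted p 0.316, or 0.29 (SE 0.08), adjusted p 0.172, without stress replicate 1, and an exon overlaps the antisense gene Gm9017. Ephb3, a receptor of B-type ephrins, was at 13.6, 18.5 and 21.6 CPM in stress against 12.6, 13.5 and 13.3 CPM in controls. Stress replicate 1 was barely above the controls, and the log2 fold change of 0.45 (SE 0.17), adjusted p 0.526, became 0.61 (SE 0.12), adjusted p 0.0721, without it. Ephb2 was at 28.4, 28.5 and 26.8 CPM in stress against 35.1, 31.3 and 30.9 CPM in controls, a log2 fold change of -0.22 (SE 0.09), adjusted p 0.560. The abundant Epha4 was at 815, 513 and 589 CPM in stress against 642, 527 and 529 CPM in controls. Stress replicate 1 lay above all controls and stress replicate 2 below all of them, and the log2 fold change of 0.18 (SE 0.16) turned to -0.04 (SE 0.09) without it. Epha7 was at 239, 229 and 232 CPM in stress against 306, 203 and 192 CPM in controls, so the controls alone spanned more than the groups differed. The 8 other tested Eph receptors ran from -0.50 for Epha8 to 0.39 for Epha2. Without stress replicate 1 the same 2 genes bounded them, at -0.61 and 0.45. Of these 8, Ephb1 moved most, from -0.08 (SE 0.24) to -0.43 (SE 0.14), adjusted p 0.254, without that library. Epha1 had 5, 0 and 0 counts in stress and 1, 1 and 3 in controls, and was not tested. A count of 0 allows up to 3 counts, or 0.349 and 0.312 CPM in those libraries, for counting error only.

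In the Slit and Robo system the values followed stress replicate 1 in different ways. Slit2 was at 111, 46.1 and 54.2 CPM in stress against 45.5, 38.1 and 52.6 CPM in controls. Its log2 fold change of 0.64 (SE 0.30), adjusted p 0.613, became 0.15 (SE 0.13), adjusted p 0.721, when stress replicate 1 was left out. Robo1, a Slit receptor, was at 134, 88.0 and 95.4 CPM in stress against 89.2, 76.5 and 78.3 CPM in controls, a log2 fold change of 0.38 (SE 0.15), adjusted p 0.539, that became 0.18 (SE 0.09) without that library. Both ligand and receptor were thus highest in stress replicate 1. Markers of choroid plexus, ependyma, striatum, CA3 and oligodendrocytes were also highest there, and the part of those cells was not tested. Slit1 lay the other way, at 198, 284 and 322 CPM in stress against 230, 252 and 237 CPM in controls. Slit1 was lowest in stress replicate 1, as were the granule neuron, astrocyte, thalamus and habenula, and meningeal fibroblast marker sums. Of these lists only that of granule neurons had every marker lowest there, while Prkcd, Tac2 and Lum were highest there. Slc17a6 was at 14.1 CPM there against 43.0 to 112 CPM in the other libraries, and Dcn at 9.93 CPM against 19.1 to 68.7 CPM. The part of these markers in the Slit1 level was not tested. For Slit1 a log2 fold change of 0.16 (SE 0.16) became 0.34 (SE 0.07), adjusted p 0.0837, without stress replicate 1. Slit3, Robo2, Robo3 and Robo4 had log2 fold changes between -0.28 and 0.19, and between -0.18 and 0.24 without stress replicate 1.

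Netrins and their receptors were led by Unc5d and Ntn5. Unc5d, a netrin receptor that also binds FLRT proteins, was at 73.7, 43.8 and 43.3 CPM in stress against 65.4, 72.3 and 84.6 CPM in controls. Stress replicate 1 lay inside the control range and the other 2 stress libraries far below it. All 6 libraries gave a log2 fold change of -0.47 (SE 0.20), adjusted p 0.573. Without stress replicate 1 Unc5d fell, at -0.77 (SE 0.11), adjusted p 0.0224. The thalamus and habenula marker sum was lower in all 3 stress libraries than in the controls, and lowest in stress replicate 1. Most of that difference lay in Slc17a6, at 14.1, 50.3 and 43.0 CPM in stress against 78.3, 112 and 94.1 CPM in controls. Tcf7l2, Lef1 and Nwd2 were also lower without overlap, while Prkcd was at -0.03 and Tac2 at 0.37 on the log2 scale. The part of these markers in the Unc5d level was not tested. Of the FLRT partners, Flrt2 gave a log2 fold change of 0.06 (SE 0.10) and Flrt3 of -0.13 (SE 0.14). In the fit without stress replicate 1 Flrt2 was at -0.02 (SE 0.09), adjusted p 0.959, and Flrt3 at -0.32 (SE 0.08), adjusted p 0.127. Ntn5 was at 1.42, 8.73 and 9.56 CPM in stress against 8.23, 12.2 and 13.2 CPM in controls. It was lowest in stress replicate 1, where the granule neuron, astrocyte, thalamus and habenula, and meningeal fibroblast marker sums were lowest too. Only the granule neuron list had every marker lowest there, while Prkcd, Tac2 and Lum were highest there. The part of these markers in the Ntn5 level was not tested. A log2 fold change of -0.77 (SE 0.56), adjusted p 0.741, became -0.30 (SE 0.21) without that library, and exons of Ntn5 overlap Sec1 on the opposite strand. Dcc was at 95.1, 82.4 and 85.2 CPM in stress against 97.2, 79.0 and 98.7 CPM in controls, with a log2 fold change of -0.06 (SE 0.10), or -0.13 (SE 0.10) without stress replicate 1. Ntn4 was at 6.22, 2.68 and 3.32 CPM in stress against 5.21, 5.39 and 5.53 CPM in controls, so the last 2 stress libraries lay below all controls and the first above. A log2 fold change of -0.40 (SE 0.28) became -0.83 (SE 0.23), adjusted p 0.154, without stress replicate 1.

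**Figure D4:**
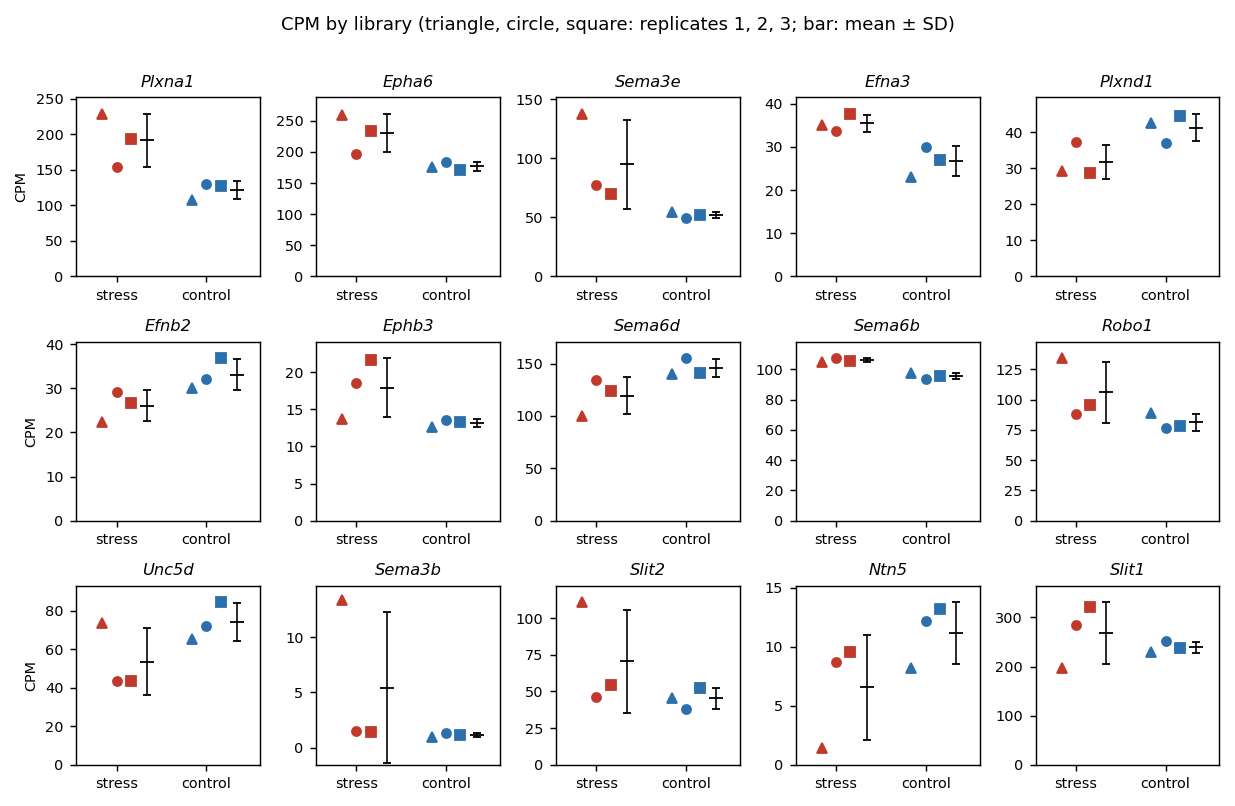
CPM of 15 guidance genes in each library (triangle, circle and square for replicates 1, 2 and 3), stress in red left of control in blue, with black bars for mean ± SD over 3 libraries. Plxna1, Epha6, Sema3e, Efna3, Ephb3 and Sema6b show every stress library above every control, and Sema3b, Slit2, Ntn5 and Unc5d show stress replicate 1 away from the other 2 stress libraries.

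Leaving out stress replicate 1 changed which genes passed. Sema3e was the 1 member called higher and Unc5d the 1 called lower, beside 0.0775% and 0.211% of the 14188 genes then tested. Unc5d is described in full because of this value. At an unadjusted p under 0.05, 9 members were higher and 10 lower, or 13.4% and 14.9%, beside 5.40% and 6.13% of all genes. The members then higher were Ephb3, Plxna1, Sema3e, Efna3, Slit1, Epha6, Unc5a, Plxna2 and Sema6b. Those lower were Ntn4, Unc5d, Sema3a, Epha8, Epha3, Ephb1, Plxnd1, Efnb2, Ephb2 and Sema6d. The log2 fold change turned sign without that library for 11 of the 67 members, or 16.4%, beside 19.5% of all tested genes. These members were Epha10, Epha4, Plxna4, Plxnb3, Robo4, Sema4a, Sema4b, Sema4c, Sema5a, Sema6c and Unc5c. Stress replicate 1 was the highest or the lowest of the 6 libraries for 34 of the 67 members, or 50.7%, and for 50.8% of all tested genes.

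Other genes of the guidance pathways were taken from a list of 81 further cues, receptors and signal transducers, all of which were tested. None was called higher and none lower by edgeR, and DESeq2 and limma-voom also called 0. At an unadjusted p under 0.05, 1 was higher and 3 were lower, or 1.23% and 3.70%, beside 3.86% and 4.85% of all tested genes. Without stress replicate 1, 4 were higher and 6 lower, or 4.94% and 7.41%, beside 5.40% and 6.13% of all genes. The Wnt receptor gene Fzd3, needed for several axon tracts, was at 257, 270 and 239 CPM in stress against 284, 300 and 314 CPM in controls. All stress libraries lay below the controls, at a log2 fold change of -0.23 (SE 0.07), adjusted p 0.449. Cdk5, a kinase of the semaphorin response, was at 83.3, 82.4 and 80.8 CPM in stress against 71.9, 72.5 and 74.1 CPM in controls. Its groups did not overlap, with a log2 fold change of 0.17 (SE 0.06), adjusted p 0.515. The log2 fold change of Tiam1, a Rac exchange factor downstream of Eph receptors, was -0.37 (SE 0.14), adjusted p 0.532, or -0.21 (SE 0.08), adjusted p 0.324, without stress replicate 1. That of Rnd1, a small GTPase that binds plexins, was -0.48 (SE 0.19), adjusted p 0.534. The median log2 fold change over the 81 genes was -0.039, and 0.0017 without stress replicate 1.

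All 69 genes are annotated as protein-coding on GRCm38. Plxna1 lies on chromosome 6 from 89316314 to 89362620 and Plxnd1 on chromosome 6 from 115954811 to 115995005. Sema3e lies on chromosome 5 from 14025276 to 14256689, Epha6 on chromosome 16 from 59653483 to 60605531, and Efna3 on chromosome 3 from 89313899 to 89322965. Unc5d lies on chromosome 8 from 28646717 to 29219636 and Ephb3 on chromosome 16 from 21204755 to 21223305. Efnb2 lies on chromosome 8 from 8617434 to 8661242, and Slit2 on chromosome 5 from 47983138 to 48307733.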

How the data were processed

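RNA of 6 libraries was made into sequencing libraries with a stranded total RNA kit after ribosomal RNA removal, per the labels' protocols. The authors deposited raw read counts, whole numbers for each gene symbol and library. Tools named in the submitters' processing notes, without role, are TopHat2 2.0.9 and HTSeq 0.6.1, with FastQC 0.11.3, Trimmomatic 0.33, edgeR 3.12.0, and the genome is given as mm10 or GRCm38. No source used here gives the annotation, counting options or strand setting. Summary rows for reads in no gene, 59.5% to 63.1% of the reads listed, and for ambiguous reads, 0.211% to 0.253%, were left out.

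Tests ran in R 4.3.3. Genes were filtered by filterByExpr (14058 kept) and scaled by TMM in edgeR 4.0.16. The quasi-likelihood F-test took group as its only term, and its two-sided p-values were adjusted by Benjamini-Hochberg across every tested gene, with a threshold of 0.05. Standard errors are from limma 3.58.1 (voom), a separate fit from the edgeR fold changes they stand beside. With all 6 libraries that fit gave 1.37 for Sema3b and -1.16 for Ntn5, against 2.19 and -0.77 by edgeR. CPM uses the TMM-scaled totals. Exon lengths and positions came from GENCODE M21, in which all 69 symbols matched 1 gene. Fits were tested on simulated data.

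The symbol rule uses no measured value, but the gene families and lists were chosen with earlier results of these data known. Full values were given by rule to the 10 tested members with the smallest p and to those with 1 library over 2-fold away from the other 5 at a mean of at least 1 CPM. The gene with the highest level per length in each family and the 4 listed pathway genes with the smallest p were also named. Unc5d, Slit1, Ephb1, Ephb2, Sema3a, Ntn4, Dcc, Epha7, Robo3, Sema5a, Flrt2 and Flrt3 were named after their values were seen. Alternatives were relative log expression scaling, no filter, a filter of 1 CPM in 3 libraries, DESeq2 1.42.0, limma-voom, the replicate number as a block, and leaving out each library.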

Additional observations from a re-analysis of the deposited data

How the results depend on the processing

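With all 6 libraries, scaling by relative log expression, no filter and the CPM filter called 0 members, as did limma-voom, while DESeq2 called 2 higher. Over all genes DESeq2 called 39 higher and 68 lower, limma-voom 1 lower and the replicate block 0 lower. Same-numbered libraries deviated together with correlations of 0.137, -0.0076 and 0.042, the first the largest of all pairs. Libraries of different number gave -0.153 to 0.122. With 3 libraries in each group these values cannot tell whether the numbers mark pairs. With the replicate block 0 members were called. In that fit 10 members were higher and 6 lower at an unadjusted p under 0.05, beside 1299 of all 14058 genes in both directions together. Leaving out each library in turn, 0 to 1 members were called higher and 0 to 1 lower, the call in each direction coming without stress replicate 1. Over all genes 0 to 11 were then higher and 0 to 30 lower. Members at an unadjusted p under 0.05 numbered 4 to 10 higher and 1 to 10 lower, with 4 higher and 1 lower without control replicate 3, 5 and 3 without control replicate 2, 9 and 2 without stress replicate 3, 10 and 3 without control replicate 1, and 9 and 10 without stress replicate 1. Those without overlap numbered 9 to 15 higher and 5 to 10 lower, or 13.4% to 22.4% and 7.46% to 14.9% of them, beside 11.2% to 14.5% and 11.3% to 14.6% of all genes. The median log2 fold change of members ran from 0.0066 to 0.061, against -0.0021 with all 6 libraries. No member with full values by rule, nor Unc5d, changed sign under any of these settings. Without stress replicate 1, 11 other members did, Epha4, Plxnb3 and Sema5a among them, as did Flrt2. The causes were not tested. Depth limits the low members: Epha1 and Efna4 had 5 counts or fewer in every library, and Epha2 and Sema3b lay near 1 CPM in most.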

Other observations

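Some guidance genes spread more among the unstressed controls than the groups differed, and these were chosen after their values were seen. Robo3, a Robo of commissural axons, was at 14.3, 18.7 and 16.4 CPM in stress against 28.6, 18.7 and 13.0 CPM in controls, a 2.20-fold range among the controls. Epha7 and Sema5a spanned 1.59-fold and 1.52-fold among the controls and were both highest in control replicate 1. For 47 of the 67 tested genes the range among controls, as a log2 ratio, was larger than the log2 fold change between the groups in size. The same share over all tested genes was not computed, so this count does not set the guidance genes apart. The median coefficient of variation of the 67 genes was 14.9% in stress and 10.5% in controls, and 10.2% and 8.27% over all tested genes. Without stress replicate 1 the median of the 67 genes in stress was 8.68% over the 2 remaining libraries. The 10.5% of the controls was taken over all control libraries. Because the number of libraries differed, these values cannot show which group spread less.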
